A study of Mus musculus with 4 samples.

Results

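The miR-148 and miR-152 family was examined in small RNA from exosome-enriched preparations of C8-D1A cells, an established mouse cell line used as cerebellar astrocytes. Its members were chosen by name alone, as every listed miRNA that derives from the hairpins mmu-miR-148a, mmu-miR-148b or mmu-miR-152, and 4 of the 389 mature miRNAs in the deposited table met this rule. They were mmu-miR-148a-3p, mmu-miR-148b-3p, mmu-miR-152-3p and mmu-miR-148a-5p. The control group held 2 libraries from wild-type cells kept at 37 °C (8 h according to the sample labels, 2 h according to the culture methods), and the heat stress group held 2 libraries from wild-type cells kept at 42 °C for 2 h and rewarmed at 37 °C for 6 h. The 2 libraries of each group are described as biological replicates. All cells grew in medium with fetal bovine serum, and the sources used here do not say whether vesicles had been removed from it. The comparison asks whether the miRNA cargo released by astrocytes differs after heat stress.

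A miRNA is cut from a hairpin precursor, and either the 5p or the 3p strand of the duplex can be loaded into an Argonaute protein, while the other strand is usually degraded. The loaded strand finds messenger RNAs mainly by pairing through its seed, bases 2 to 8 from the 5′ end, so miRNAs with one seed share many predicted targets. This family is known for targeting DNA methyltransferase transcripts, and miR-148a-3p is one of the abundant miRNAs of milk and of liver.

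The mature sequences are shown, with the seed in capitals, because the 3p members share a seed and differ from each other at only 2 or 3 positions outside it, while miR-148a-5p has another seed. They are the RefSeq sequences for GRCm38.p6, written 5′ to 3′.
mmu-miR-148a-3p: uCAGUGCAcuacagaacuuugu
mmu-miR-148b-3p: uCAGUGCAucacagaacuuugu
mmu-miR-152-3p: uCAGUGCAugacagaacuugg
mmu-miR-148a-5p: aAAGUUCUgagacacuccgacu
mmu-miR-130a-3p: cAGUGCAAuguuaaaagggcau

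The first 3 share 1 seed, and they are the only ones with it among the 1679 mature mouse miRNAs of the RefSeq table. Counting from 1 at the 5′ end, mmu-miR-148b-3p differs from mmu-miR-148a-3p by C9U and U10C and is identical at 20 of 22 bases. Over the 21 bases of mmu-miR-152-3p, the differences from mmu-miR-148a-3p are C9U, U10G and U20G. Mmu-miR-130a-3p is shown as the one listed miRNA matched by name with the seed AGUGCAA. This is the family seed moved by 1 base, with its last base taken from miR-130a-3p. Seeds with another last base were not counted. Names of 325 of the 389 listed miRNAs matched the RefSeq table, all 4 members included. The arms mmu-miR-148b-5p and mmu-miR-152-5p have no row in the table and were not analysed here.

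The hairpin of miR-148a is given with both mature arms in capitals, the 5p arm first, because its arms were recovered so unequally.
Mir148a: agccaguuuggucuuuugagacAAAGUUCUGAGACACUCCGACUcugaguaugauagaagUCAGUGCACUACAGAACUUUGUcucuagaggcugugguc

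The build used upstream is not given, and the positions here are those of GRCm38. Mir148a lies on the minus strand at chr6:51269812-51269910, and no other gene of the GENCODE M21 annotation overlaps it. Mir148b lies at chr15:103285125-103285221 on the plus strand, inside an intron of Copz1. Mir152 lies at chr11:96850393-96850465, also on the plus strand and inside an intron of Copz2. Copz1 and Copz2 encode zeta subunits of the coatomer, the coat of vesicles that move between Golgi and endoplasmic reticulum. Both host genes have the orientation of their hairpin.

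The deposited values are normalized, with 1 factor per library. In each library 100% of them were whole multiples of the smallest value (within 1e-09), so 1 multiple was read as 1 read and the libraries held between 43675 (control library 1) and 100933 (heat stress library 1) miRNA reads. These counts are far below the data volume per sample that the study's methods give. A share of the library sum does not depend on the factor of its library. Shares are given with exact 95% binomial intervals, which cover counting error only, because reads amplified by PCR are not independent molecules. By a fixed rule, a listed 0 was taken to allow up to 3 reads. This is a share of up to 0.00687% in control library 1 and up to 0.00297% in heat stress library 1. The exact interval of a 0 reaches further, to 0.00845% and 0.00365% in the same order. More vesicles and more of a miRNA per vesicle cannot be told apart in such preparations.

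Labelled as astrocytes, the preparations were compared with marker lists. Of 8 neural and glial miRNAs 6 had a row and 3 were above 0 in every library, and together they made up 2.93% to 5.87% of the reads. Most of this was the single miRNA miR-125b-5p, with 2.17% to 5.13% of the reads. MiR-128-3p, a brain-enriched miRNA, stood at 382 to 540 in every library. MiR-9-5p, typical of neural cells, was at 0 in control library 2 and at 48.0 to 138 elsewhere. MiR-9-3p was at 56.9 in control library 1 and 4.74 in heat stress library 1, and at 0 in control library 2 and heat stress library 2. MiR-29a-3p ranged from 24.3 to 48.8, and miR-124-3p, typical of neurons, did not exceed 4.06. MiR-219a-5p and miR-338-3p had no row. The blood cell list (6 of 8 with a row) includes miR-486a-5p and miR-486b-5p, whose values are identical in every library. With these counted once, it made up 1.65% in control library 1, 0.796% in control library 2, 1.03% in heat stress library 1 and 0.935% in heat stress library 2, and with both counted between 1.54% and 3.23%. The muscle list (2 of 4 with a row) stayed between 0.0277% and 0.145% and the liver list (3 of 3 with a row) between 0.0396% and 0.185%.

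Mmu-miR-148a-3p, the main 3p product of its hairpin, was the most abundant miRNA in each of the 4 libraries. Its normalized value was 11928 in control library 1, 23176 in control library 2, 23825 in heat stress library 1 and 15961 in heat stress library 2. Control library 1 was the lowest and heat stress library 1 the highest, with heat stress library 2 between the controls, so the groups overlapped. As a share of all miRNA reads, it took 20.2% (19.8 to 20.5) and 31.2% (30.9 to 31.5) in the control libraries and 29.9% (29.6 to 30.2) and 25.2% (24.8 to 25.5) in the heat stress libraries. The 4 intervals are disjoint, so libraries of the same group differed by more than counting error.

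The control group had a mean share of 25.7% ± 7.79 and the heat stress group one of 27.5% ± 3.32 (SD, n = 2 each). The difference of 1.85 percentage points was smaller than either SD, and its two-sided exact permutation p was 1 (n = 2 and 2), where 0.33 is the smallest value that 4 libraries allow. In normalized values, the group means stood at a ratio of 1.13, while the higher control library stood at 1.94 times the lower and the higher heat stress library at 1.49 times the lower. On the log2(value + 1) scale the change was 0.23 (standard error 0.90, 95% interval -2.10 to 2.56, limma, Benjamini-Hochberg adjusted p = 0.983 over 313 miRNAs). The interval spans more than a 4-fold change in both directions, so neither a rise nor a fall of that size is resolved. Without control library 1 the difference in share was -3.65 percentage points, and without control library 2 it was 7.36.

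**Figure D1:**
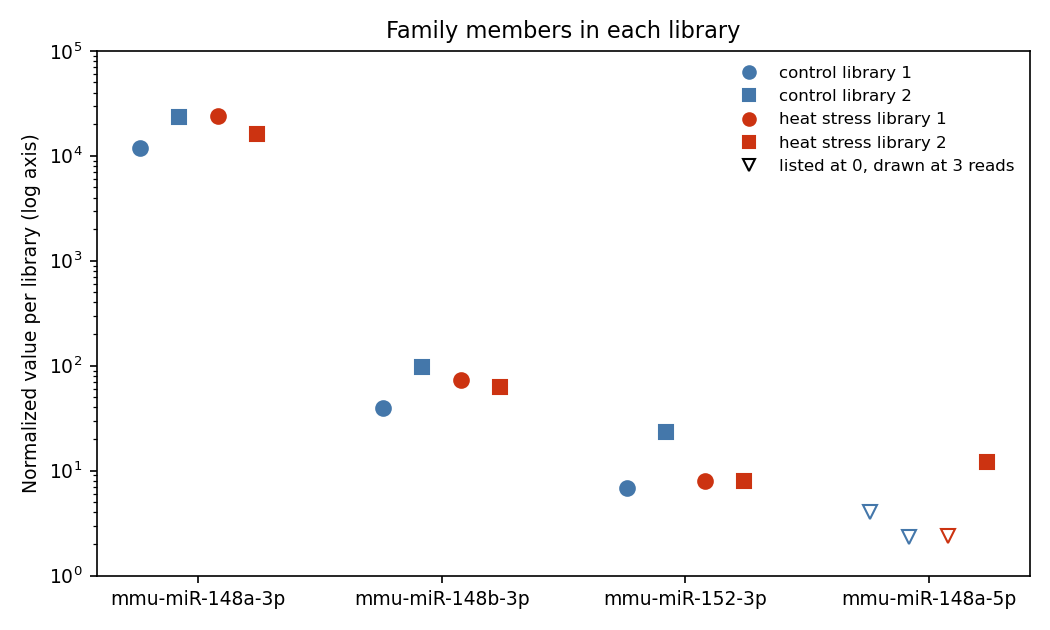
Normalized value (log axis) of each family member in the 2 control and 2 heat stress libraries, 1 symbol per library. Open triangles stand for a listed 0 and are drawn at the value of 3 reads; miR-148a-3p lies between 11928 and 23825, and the other members do not exceed 97.8.

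Its distance from the rest of the library also varied. The next most abundant miRNA was let-7c-5p, a let-7 member associated with differentiated cells, with 6.94% of control library 1, 14.5% of control library 2, 14.5% of heat stress library 1 and 9.87% of heat stress library 2. MiR-148a-3p exceeded let-7c-5p 2.91-fold and 2.16-fold in the control libraries and 2.06-fold and 2.55-fold in the heat stress libraries. In control library 1 the second rank was held by miR-365-2-5p (6.96%), which let-7c-5p held in the other 3 libraries. MiR-10b-5p, miR-10a-5p and miR-125b-5p, the other miRNAs among the 5 most abundant outside the family, each stayed between 2.17% and 5.53%. The position of miR-148a-3p as the leading miRNA was therefore the same in both groups, whereas the size of its lead was not stable between replicates.

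**Figure D2:**
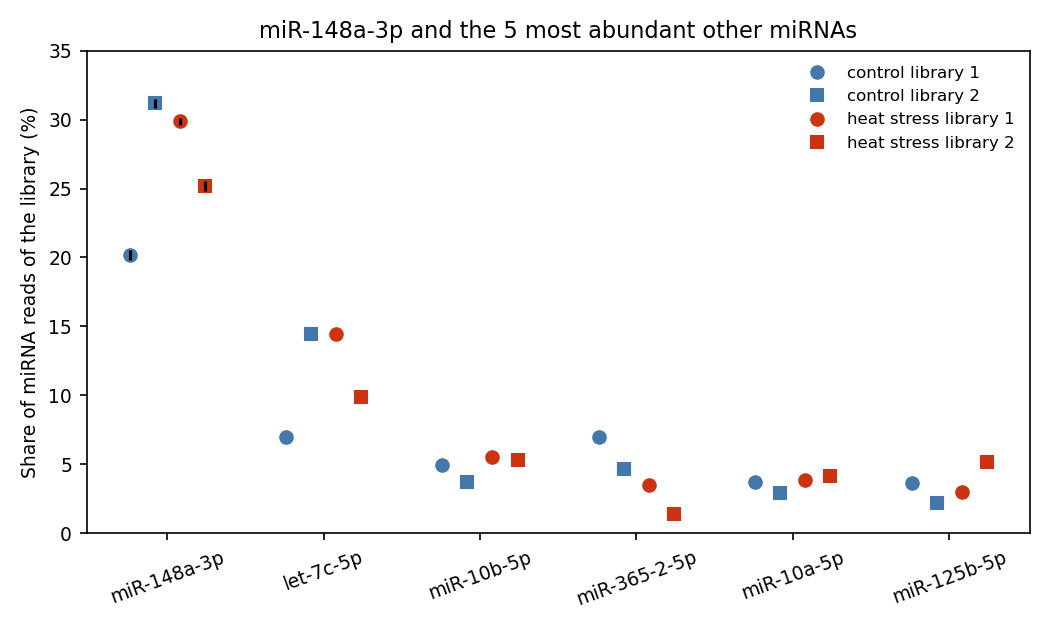
Share of the miRNA reads of each library (%) for miR-148a-3p and the 5 most abundant miRNAs outside the family, 1 symbol per library. Black bars on miR-148a-3p are exact 95% binomial intervals; its shares of 20.2% to 31.2% lie above all shares of the other 5 miRNAs, which reach 14.5%.

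Because 1 miRNA held so large a part of each library, it also moved the library sums. The sums of normalized values were 59165 and 74337 in the control libraries and 79765 and 63397 in the heat stress libraries, with a highest-to-lowest ratio of 1.35. After removal of the family, the sums were 47191, 51040, 55858 and 47354 in the same order, and the ratio was 1.18. Rescaling all values to the library sums moved the median log2 change of all 313 miRNAs from 0.12 to 0.02. Relative to these medians, the log2 change of miR-148a-3p was 0.11 under both scalings.

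Mmu-miR-148b-3p, the 3p product of the hairpin in Copz1, was the second member by level in every library. It reached 39.3 (29 reads) in control library 1, 97.8 (125 reads) in control library 2, 73.5 (93 reads) in heat stress library 1 and 62.1 (62 reads) in heat stress library 2. Both heat stress libraries lay between the 2 control libraries. The shares were 0.0664% (0.0445 to 0.0953) and 0.132% (0.110 to 0.157) in the control libraries, which differ beyond counting error, and 0.0921% (0.0744 to 0.113) and 0.0979% (0.0751 to 0.125) after heat stress. The mean shares of 0.0990% ± 0.0461 and 0.0950% ± 0.00406 (SD, n = 2 each) gave a two-sided exact permutation p of 1.

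The direction for miR-148b-3p depended on the scale. The mean normalized value was slightly lower after heat stress (67.8 ± 8.09 against 68.5 ± 41.4, SD, n = 2), whereas the log2 change was 0.12 (standard error 0.93, limma, Benjamini-Hochberg adjusted p = 0.984), which is also the median of all miRNAs tested. Without control library 1 the log2 change was -0.53, and without control library 2 it was 0.77.

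Set against miR-148a-3p, the level of miR-148b-3p was measured only coarsely. There were 0.329 and 0.422 reads of miR-148b-3p per 100 reads of miR-148a-3p in the control libraries and 0.308 and 0.389 in the heat stress libraries. Expressed as a share of the 2 together, the exact 95% intervals ran from 0.220% to 0.471%, from 0.350% to 0.5004%, from 0.248% to 0.377% and from 0.297% to 0.496%, and each overlapped the other 3, which is no test of a difference. Alone, miR-148a-3p varied 2.00-fold over the 4 libraries and miR-148b-3p 2.49-fold. The 2 sequences differ at only 2 bases, the handling of mismatches is not given in the sources used here, and whether reads of miR-148a-3p were counted as miR-148b-3p was not tested.

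Mmu-miR-152-3p, from the hairpin in Copz2, was scarce. It stood at 6.77 (5 reads) in control library 1, at 23.5 (30 reads) in control library 2, at 7.90 (10 reads) in heat stress library 1 and at 8.01 (8 reads) in heat stress library 2. By value, control library 2 was the highest, and the other control library lay just below both heat stress libraries. The shares were 0.0114% (0.00372 to 0.0267) and 0.0316% (0.0213 to 0.0451) in the control libraries and 0.00991% (0.00475 to 0.0182) and 0.0126% (0.00545 to 0.0249) after heat stress. By share, control library 1 lay between the heat stress libraries. The interval of control library 2 overlapped those of control library 1 and heat stress library 2. The mean share was 0.0215% ± 0.0142 in the control group and 0.0113% ± 0.00193 in the heat stress group (SD, n = 2 each, two-sided exact permutation p = 0.667). The difference in share stayed negative whichever library was left out, but without control library 2 it shrank to -0.000179 percentage points.

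The log2 change of miR-152-3p was -0.62 (standard error 0.98, limma, Benjamini-Hochberg adjusted p = 0.908), and the ratio of the group means was 0.526. On the log2 scale, control library 2 decided this direction. Without it the log2 change was 0.20, and without control library 1 it was -1.45 and past the threshold (over 2-fold, with p below 0.05 before adjustment). In that fit the single control library was assumed to vary like the heat stress libraries, which differed by as little as 1.01-fold.

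Mmu-miR-148a-5p, the opposite strand of the abundant miR-148a-3p, was found in 1 library only. It was at 12.0 in heat stress library 2, which is 12 reads or 0.0189% (0.00979 to 0.0331) of the library, and at 0 in both control libraries and in heat stress library 1. The 2 heat stress libraries therefore did not show the same thing, and the groups overlapped at 0. On the log2(value + 1) scale the change was 1.85 (standard error 1.44, limma, Benjamini-Hochberg adjusted p = 0.686), and the two-sided exact permutation p of the share was 1 (n = 2 and 2). With only heat stress library 2 above 0, this permutation result was fixed whatever the value there. With both controls at 0 the size of the log2 change is set by the pseudocount, at 3.46 with 0.1 and 0.88 with 5, and it was 5.75 with edgeR. With 3 reads taken for each control library, the heat stress mean of 6.01 would be 1.87 times the control mean. This is no lower bound, because the counting error of the 12 reads is not included. All of this rested on heat stress library 2, and without it the change was 0.

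The balance of the 2 arms can be read within a library, where the normalization cancels. In heat stress library 2, 0.0752% (0.0389 to 0.131) of the reads on the 2 arms lay on the 5p arm. In the 2 deepest libraries for this hairpin, control library 2 with 29624 and heat stress library 1 with 30148 reads on the 3p arm, the exact 95% interval of a count of 0 reaches 0.0125% and 0.0122%. The limits of the 2 deepest libraries lie below the interval of heat stress library 2, so this arm differed by more than counting error between the 2 heat stress libraries as well as from control library 2. For control library 1, with 8805 reads on the 3p arm, the exact interval reaches 0.0419% and overlaps that of heat stress library 2.

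Summed over the libraries, the hairpin had 84523 reads on its 3p arm and 12 on its 5p arm, or 0.0142 per 100. Among the 41 hairpins with a row for each arm and at least 100 reads, the lesser arm had a median of 6.18 reads per 100 of the greater arm, and miR-148a had the smallest value. Let-7b (0.0200) and miR-151 (0.0306) followed. Of these, the lesser arm of let-7b had 2 reads and that of miR-151 had 1, so the order among the smallest is limited by counting error, and hairpins with no row for one arm are not included.

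**Figure D3:**
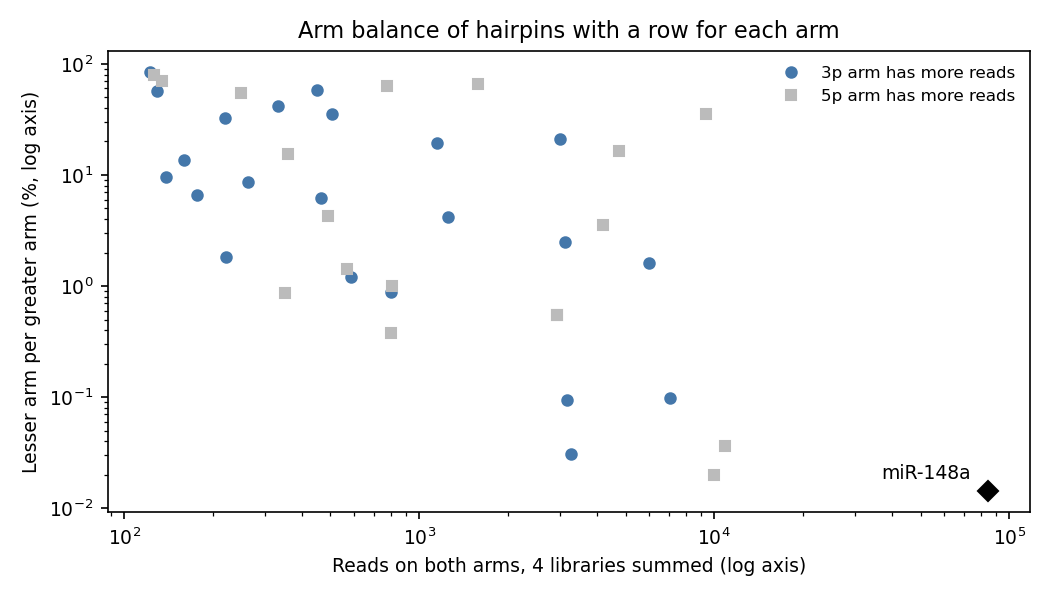
Reads of the lesser arm per 100 reads of the greater arm against the reads on both arms, summed over the 4 libraries (both axes logarithmic), for 41 hairpins with a row for each arm and at least 100 reads. Circles have more reads on the 3p arm and squares on the 5p arm; miR-148a, the diamond, has the most reads and the smallest ratio, 0.0142 per 100.

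Together the 4 members made up 20.2% and 31.3% of the control libraries and 29.97% and 25.3% of the heat stress libraries. Between 99.5% and 99.7% of these reads belonged to miR-148a-3p, so the summed level of the family is in effect the level of this one member. The order miR-148a-3p, miR-148b-3p, miR-152-3p held in every library, and the ranges of these 3 over the libraries did not overlap. By contrast, miR-152-3p and miR-148a-5p changed places, with miR-148a-5p above miR-152-3p in heat stress library 2 and below it in the others. The 4 mature miRNAs are 21 or 22 bases long. Whether they were ligated and amplified equally well was not tested, so the members are compared as reads only. MiR-148b-3p exceeded miR-152-3p 5.80-fold and 4.17-fold in the control libraries and 9.30-fold and 7.75-fold after heat stress, ratios that rest on 5 to 30 reads of miR-152-3p.

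None of the 4 members, all of which passed the filter of a mean value of at least 1, was past the threshold between the groups in limma's test, and the smallest unadjusted p among them was 0.256 (miR-148a-5p). Over all 313 miRNAs tested, 7.35% were past it in either direction, so 0 of 4 does not set the family apart from the others. The count of members past it was also 0 with edgeR's quasi-likelihood test on the recovered reads, an alternative chosen after seeing the data. In none of the 4 did the libraries of the groups separate without overlap, which held for 27.5% of all miRNAs tested. The median log2 change of the members was 0.17, beside 0.12 over all miRNAs tested. The standard errors of the members, 0.90 to 1.44, enclosed the median of 1.11 over all miRNAs. No miRNA of the 313 had an adjusted p under 0.05 with limma (23 before adjustment), although 35 did when either heat stress library was left out, against 1 with edgeR (14 before adjustment).

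**Figure D4:**
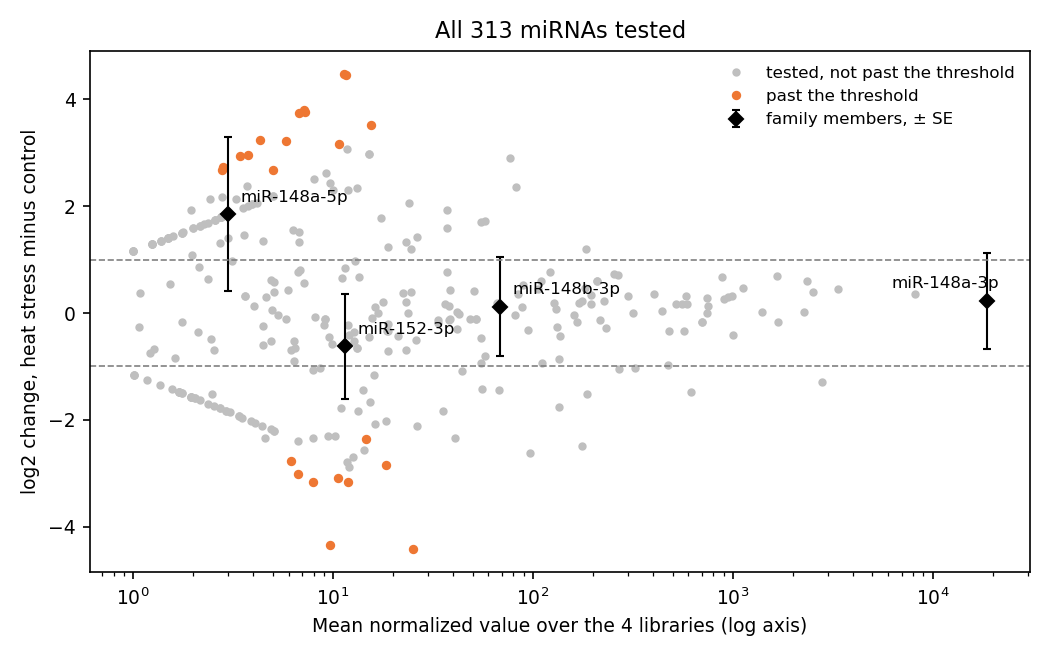
Log2 change (heat stress minus control, on log2(value + 1)) against the mean normalized value (log axis) for the 313 miRNAs tested, with dashed lines at 2-fold and miRNAs past the threshold in orange. The 4 family members are black diamonds with their standard errors; they lie among the grey points at -0.62 to 1.85.

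The way miR-148a-3p varied over the libraries was shared with other miRNAs. Likeness was measured over the 4 libraries as the root-mean-square distance between log2(value + 1) profiles, each centred on its own mean, among 131 miRNAs that were above 0 in every library and had a mean value of at least 10. Let-7f-5p was nearest, with a distance of 0.06, followed by miR-3963 (0.12), let-7d-3p (0.17), miR-27b-3p (0.17) and miR-21a-5p (0.17). The median distance was 0.65. MiR-148b-3p came next at rank 6 with a distance of 0.18, and miR-152-3p was at rank 44 with 0.54. These miRNAs were picked for their likeness, and 4 libraries allow no test of it.

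Let-7f-5p, the nearest, had values of 534 and 1165 in the control libraries and 1130 and 790 in the heat stress libraries, which is the order of miR-148a-3p except that its highest value fell in control library 2. The profiles of miR-148a-3p and its 5 nearest were lowest in control library 1 and highest in control library 2 or heat stress library 1, so the variation they share runs across replicates rather than between the groups. Control library 1 was also the library with the fewest reads, and the part of depth in this pattern was not tested. Being lowest in control library 1 was not unusual, as 31 of 132 miRNAs with such levels (23.5%) were lowest there.

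**Figure D5:**
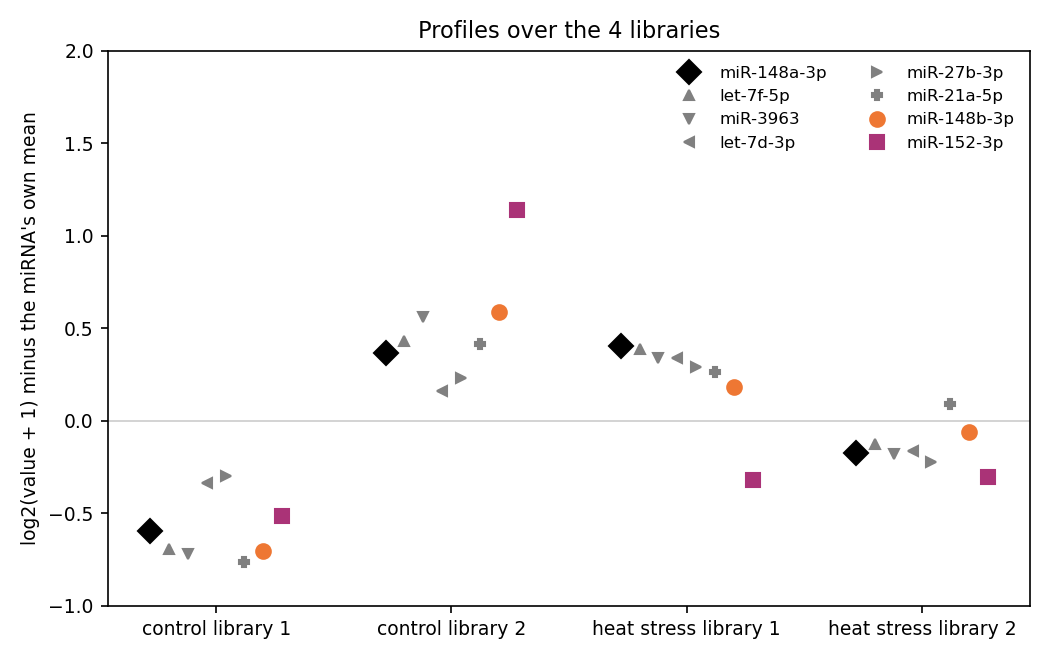
Log2(value + 1) minus the mean of the miRNA over the 4 libraries, for miR-148a-3p (diamonds), miR-148b-3p (circles), miR-152-3p (squares) and the 5 miRNAs nearest to miR-148a-3p (grey). In the order control 1, control 2, heat stress 1 and heat stress 2, miR-148a-3p lies at -0.59, 0.36, 0.40 and -0.17, with miR-152-3p apart at 1.14 in control library 2.

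Of 7 mature miRNAs in the RefSeq table with the moved seed AGUGCAA, whose last base is that of miR-130a-3p, miR-130a-3p alone had a row under its name. It was also the only one with a row among the 5 on the list (miR-130a-3p, miR-130b-3p, miR-301a-3p, miR-301b-3p and miR-721). Of these, 4 were found by name in the RefSeq table, each with this seed, and miR-301b-3p was not found there by name. Those without a row were not analysed here. MiR-130a-3p was at 7.82 in control library 2, which is 10 reads, and at 0 in the other 3 libraries. Its log2 change of -1.57 (limma, Benjamini-Hochberg adjusted p = 0.686) thus rested on control library 2, the library in which miR-152-3p was also highest.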

How the data were processed

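Small RNA of exosome-enriched preparations from C8-D1A supernatant was sequenced in 2 control and 2 heat stress libraries. From the raw reads the authors took out adapters, reads under a minimum length and low-quality reads and compared clean reads with the genome, with Bowtie according to the methods, whereas the labels' processing notes name BWA and FastQC. Versions, build and miRNA release are not given in the sources used here. The deposited values are a normalized signal per mature miRNA, whole multiples of 1 step per library. The authors' own fold changes and p-values, and their table of selected miRNAs, were not used.

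Values were tested as log2(value + 1) with limma (version 3.58.1, R version 4.3.3) over the 313 miRNAs with a mean of at least 1, fitting condition alone, and adjusted by Benjamini-Hochberg. The threshold (over 2-fold, with p below 0.05 before adjustment) follows the study's methods. Smaller p-values than 0.33 rest on limma's shared variance. Shares were tested by exact permutation with scipy (version 1.17.1). The scripts were tested on simulated counts with 8-fold changes, so the recovery of smaller changes was not tested. Alternatives were other pseudocounts, filters, scalings and variance priors, a replicate block, leaving out each library, and edgeR (version 4.0.16). Figures were drawn with matplotlib (version 3.10.9). Named miRNAs were the members, the moved-seed list, the 5 most abundant others and the 5 nearest profiles. Let-7b and miR-151, and the minimum of 100 reads for arm pairs, were chosen after values were seen. Members, lists and tests were chosen with earlier results of these data known. The marker lists were written from general knowledge.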

Additional observations from a re-analysis of the deposited data

How the results depend on the processing

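With all 4 libraries, the log2 changes of the members kept their direction and side of the threshold in the 34 comparisons with an alternative. The differences in share kept their direction in 16. Alternatives that changed only the filter, the block or the variance prior could not alter a log2 change, so its direction was fixed there. Direction was also fixed for miR-148a-5p, which was above 0 in heat stress library 2 only. The size for miR-148a-5p (1.85) ran from 0.88 with a pseudocount of 5 to 5.75 with edgeR. Directions did not all hold with 1 library left out. The log2 change then ran from -0.25 to 0.71 for miR-148a-3p, from -0.53 to 0.77 for miR-148b-3p, from -1.45 to 0.20 for miR-152-3p and from 0 to 3.70 for miR-148a-5p, which passed the threshold without heat stress library 1, as both controls are at 0. The difference in share ran from -3.65 to 7.36 percentage points for miR-148a-3p and from -0.0365 to 0.0286 for miR-148b-3p. For miR-152-3p it ran from -0.0203 to -0.000179 and kept its direction. The 5p share of the miR-148a reads in the heat stress group (0.0260%) ran from 0 to 0.0752%. In these fits a lone library is assumed to vary like the other group.

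The number of miRNAs past the threshold, 14 higher and 9 lower, was less stable. It was 2 and 5 with at least 10 steps in every library, where 104 miRNAs and 2 members were tested, 6 higher with the trended variance prior of limma, 2 lower with a pseudocount of 0.1, and 7 higher with edgeR. It ran from 10 to 39 higher and from 3 to 27 lower with 1 library left out, and the number with an adjusted p under 0.05 from 0 to 35, reached without heat stress library 1 and without heat stress library 2. With the replicate block there were 4 lower and no member passed. In the sources used here, same-numbered libraries have only a number in common, and it is not said whether they were handled together. Their deviations had a Pearson correlation of -0.0189 over 313 miRNAs, which does not decide this. The stricter filter tests fewer miRNAs by construction; for the other settings the cause was not tested. Depth limits miR-152-3p and miR-148a-5p most, with at most 30 reads per library.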

Other observations

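Some listed miRNAs had the same values as another in all 4 libraries. Among those above 0 in at least 2 libraries, 14 rows formed 7 sets of identical values, such as miR-486a-5p with miR-486b-5p and miR-199a-3p with miR-199b-3p. No member of the miR-148 and miR-152 family was among them. The count depends on the rule, which like its alternative was set after seeing the data: among miRNAs with at least 10 reads over the 4 libraries, 35 rows formed 15 sets, again with no member. Counting each set once gave a difference in the share of miR-148a-3p of 1.85 percentage points by the first rule and 1.87 by the second.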
